A study of Homo sapiens with 2 samples.

Results

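The genes described here are the growth factor receptor gene EGFR, the semaphorin receptor gene NRP1, the secreted ligand genes SEMA3A, SEMA3C and PDGFB, the caveolin gene CAV1, and the calcium-dependent protein genes ANXA1 and S100A6. They were taken by name from the authors' deposited table, which lists 836 loci, and all 8 names were found, each at 1 locus. The names were chosen on the ratio between the 2 libraries, so every level and ratio below is a description without a test. The cells were MiaPaCa, a long-established line of human pancreatic cancer, with 1 RNA-seq library for the Scr control and 1 for the MYB-silenced line. Both lines were transfected, puromycin-selected stable pools, the control with the plasmid pGFP-V-RS-Scr and the other with the hairpin plasmid pGFP-V-RS-shMYB against the transcription factor MYB. The labels call the control MYB-overexpression, while the treatment protocol names only these plasmids. The deposited values are FPKM, which scales fragments to transcript length and library size, so levels of different genes can be set side by side within a library. FPKM does not scale for GC content, and the part of GC content in level ratios between genes was not tested.

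The table holds 836 loci with an unadjusted p-value of at most 0.04995, and genes outside that selection were not analysed here. Depth is unknown, because no counts are given, and with 1 library a group no value has an error. MYB, the targeted gene, had 981 FPKM in the Scr control against 0.554 FPKM in the MYB-silenced line. Its control level was the highest of all 836 listed loci. Because the labels call the control MYB-overexpression, MYB raised in the control and MYB lowered by the hairpin cannot be told apart here. This holds for every ratio below. Of 24 marker genes of pancreatic epithelium, fibroblasts, endothelium, blood and acinar cells, 0 were listed. The labelled cell type could therefore not be checked with them. Named after their values were seen, the muscle genes DES, MB, TNNC1 and TCAP, among others, were lower after silencing. DES measured 1.97 FPKM in the Scr control against 0.0780 FPKM after silencing, and MB 3.05 against 0.736 FPKM. FHL1, also a muscle gene, was higher (4.70 against 11.5 FPKM). The source of these transcripts was not tested, and NRP1, described below, lies at levels as low as DES and MB. In RNA from whole cultures, fewer cells of a kind and less RNA per cell cannot be told apart.

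EGFR is a receptor tyrosine kinase that binds ligands of the EGF family and signals through adaptors such as SHC1 to the RAS and ERK cascade. Caveolin-1, the product of CAV1, is the main coat protein of caveolae, small pits of the plasma membrane in which receptors including EGFR can be held. Class 3 semaphorins are secreted guidance proteins that bind neuropilins, of which NRP1 is one, and signal through plexins, the transmembrane partners of neuropilins. PDGFB dimerises into a growth factor for mesenchymal cells such as fibroblasts and pericytes. Annexin A1 and S100A6 are cytoplasmic calcium-dependent proteins, and members of the S100 family can bind annexins.

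Because the silenced gene encodes a DNA-binding factor, the promoters of these genes were read for its element. RefSeq promoter windows (GRCh38.p14) matched 5 of the 8 genes, EGFR, CAV1, SEMA3C, ANXA1 and S100A6, with 9 annotated starts in all. The 250 bases before a start are shown for CAV1 and SEMA3C, which had the lowest ratios of the 8, and for ANXA1 and S100A6, which had the highest levels and opposite directions. SEMA3C has 2 annotated starts of unlike base composition, and both are shown. Capitals mark the MYB element (CAACGG or CAACTG or TAACGG or TAACTG, either strand), the GC box (GGGCGG, either strand), the TATA box (TATAAA, given strand) and the AP-1 element (TGACTCA or TGAGTCA, either strand).
ANXA1, chr9:73151615-73151864, plus strand: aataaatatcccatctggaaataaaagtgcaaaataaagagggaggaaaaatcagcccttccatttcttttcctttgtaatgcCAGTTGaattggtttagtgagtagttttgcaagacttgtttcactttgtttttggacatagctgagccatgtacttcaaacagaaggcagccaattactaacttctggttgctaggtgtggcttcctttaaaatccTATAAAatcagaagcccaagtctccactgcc
S100A6, chr1:153535992-153536241, minus strand: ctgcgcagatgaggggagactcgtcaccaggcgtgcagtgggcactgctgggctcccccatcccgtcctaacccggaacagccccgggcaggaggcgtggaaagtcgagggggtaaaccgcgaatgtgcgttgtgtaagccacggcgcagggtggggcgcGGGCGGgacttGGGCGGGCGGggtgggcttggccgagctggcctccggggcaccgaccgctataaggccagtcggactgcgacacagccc
CAV1, chr7:116524759-116525008, plus strand: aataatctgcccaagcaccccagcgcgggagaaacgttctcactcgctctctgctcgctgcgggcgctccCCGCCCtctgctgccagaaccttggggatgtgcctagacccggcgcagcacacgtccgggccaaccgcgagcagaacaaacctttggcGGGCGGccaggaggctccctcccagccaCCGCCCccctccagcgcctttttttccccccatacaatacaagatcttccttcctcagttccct
SEMA3C upstream start, chr7:80922390-80922639, minus strand: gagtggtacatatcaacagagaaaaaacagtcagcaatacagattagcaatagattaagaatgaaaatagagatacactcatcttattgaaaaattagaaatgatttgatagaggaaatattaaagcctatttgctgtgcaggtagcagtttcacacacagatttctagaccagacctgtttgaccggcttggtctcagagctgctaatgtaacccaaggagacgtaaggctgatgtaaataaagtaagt
SEMA3C downstream start, chr7:80919052-80919301, minus strand: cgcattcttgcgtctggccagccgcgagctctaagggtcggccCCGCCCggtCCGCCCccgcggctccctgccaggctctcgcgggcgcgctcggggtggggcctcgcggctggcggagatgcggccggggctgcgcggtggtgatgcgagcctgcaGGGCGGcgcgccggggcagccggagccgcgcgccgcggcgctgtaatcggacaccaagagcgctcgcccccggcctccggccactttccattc

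The MYB element was found in 1 of the 9 windows, that of ANXA1, where CAGTTG (the reverse complement of CAACTG) begins 167 bases before the start. Over all 35116 RefSeq windows of this length, 21.1% hold it. ANXA1 has an AT-rich window with 38.4% GC, a TATA box 31 bases before the start and 0 GC boxes. A TATA box on the given strand is found in 6.80% of all windows. The S100A6 window has 70.0% GC and 3 GC boxes, and 2 of these overlap, beginning 79 and 75 bases before the start. The GC box is found in 42.6% of all windows. The CAV1 window shown has 63.6% GC and 3 GC boxes. Its second window overlaps the first, and its remaining start has 73.2% GC and 2 GC boxes. For SEMA3C, the upstream start has 36.4% GC and none of the 4 elements, and the downstream start has 77.6% GC and 3 GC boxes. EGFR likewise has a GC-rich window (73.6% GC, 2 GC boxes) and an AT-rich one at an internal start (38.8% GC), which holds 2 TATA boxes and 2 AP-1 elements, the latter found in 4.20% of all windows. The table gives 1 value per gene, so the start that each transcript came from was not analysed here. A match of letters is no evidence of binding.

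After MYB silencing, 6 of the 8 genes were lower and 2 higher. The listed loci whose mean over both libraries reached 1 FPKM numbered 797, and of these 62.4% were lower and 37.6% higher. All 8 genes pass that level filter, NRP1 narrowly with a mean of 1.07 FPKM. Ratios below are log2(MYB-silenced FPKM + 0.5) minus log2(Scr control FPKM + 0.5), and a 2-fold difference is an absolute log2 ratio of at least 1. At least 2-fold lower were 6 of the 8 genes, beside 24.7% of the listed loci. At least 2-fold higher were 0 of the 8, beside 19.9% of the listed loci. The genes were picked with these ratios known, so nothing is read from the shares. The median log2 ratio was -1.12 for the 8 genes and -0.80 for the 797 loci.

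**Figure D1:**
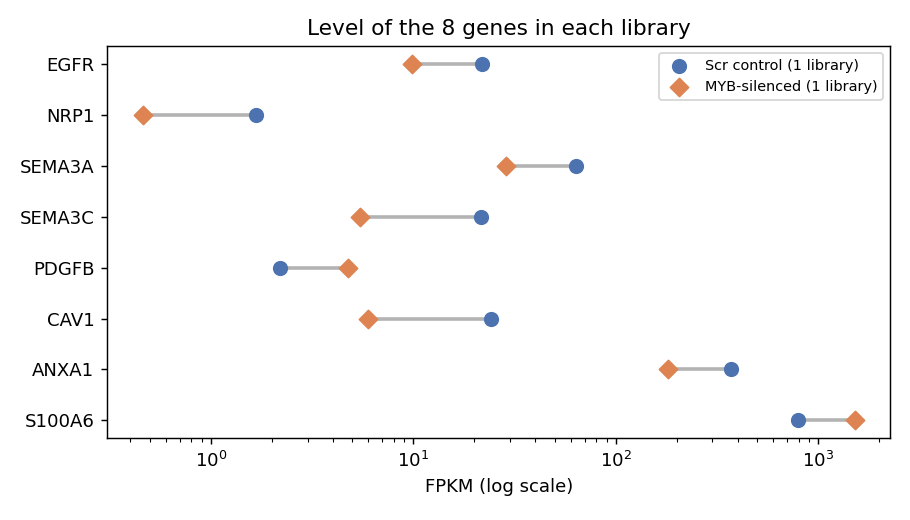
Level of each of the 8 genes (rows) in FPKM on a log axis, with a circle for the Scr control library and a diamond for the MYB-silenced library, 1 library each and no error bars. The diamond lies left of the circle for 6 genes and right of it for PDGFB and S100A6, and levels span from 0.460 FPKM (NRP1) to 1515 FPKM (S100A6).

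Both receptor genes were lower after silencing. EGFR (chromosome 7, 55086530 to 55279181, hg19) measured 21.9 FPKM with the scrambled plasmid against 9.89 FPKM with the MYB hairpin. EGFR thus kept 45.2% of its control level with the hairpin (log2 ratio -1.11). NRP1 (chromosome 10, 33466419 to 33623833) measured 1.67 FPKM against 0.460 FPKM with the hairpin. It was the most weakly expressed of the 8 in both libraries, and it kept 27.5% of its control level. Its log2 ratio of -1.18 depends on the pseudocount, and was -1.86 in the authors' deposited table, which uses none, against -0.87 with a pseudocount of 1. In both libraries EGFR stood above NRP1, by 13.1 times in the control and 21.5 times after silencing (10.3 and 10.8 times with 0.5 added to each FPKM value).

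The 3 ligand genes did not share a direction. SEMA3C (chromosome 7, 80371854 to 80548667) measured 21.5 FPKM in the control against 5.43 FPKM with the hairpin, a silenced level of 25.2% and a log2 ratio of -1.89. SEMA3A (chromosome 7, 83585222 to 83936609), a repulsive guidance cue for axons, measured 63.7 against 28.7 FPKM, a silenced level of 45.1% and a log2 ratio of -1.14. PDGFB (chromosome 22, 39619685 to 39640957) measured 2.20 FPKM in the control against 4.76 FPKM with the hairpin, 2.16 times the control level. Its log2 ratio of 0.96 lies just under the 2-fold line, and it was 1.08 with a pseudocount of 0.1. The semaphorin ligands were thus lower together with their receptor gene NRP1, while the PDGF ligand was higher.

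CAV1 (chromosome 7, 116164839 to 116201239) had the lowest ratio of the 8 genes. Its level was 24.1 FPKM in the control against 5.95 FPKM with the hairpin, a silenced level of 24.6% and a log2 ratio of -1.93. Ordered from the lowest ratio among the 797 loci, CAV1 was in place 26 and SEMA3C in place 27.

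The calcium-dependent pair had the highest levels of the 8 genes and differed in direction. ANXA1 (chromosome 9, 75766781 to 75785307), which encodes a protein that binds membrane phospholipids and restrains inflammation, measured 372 FPKM in the control against 182 FPKM with the hairpin. It kept 48.9% of its control level (log2 ratio -1.03), close to the 2-fold line. S100A6 (chromosome 1, 153507022 to 153508717), also called calcyclin, measured 793 FPKM in the control against 1515 FPKM with the hairpin. That is 1.91 times the control level, a log2 ratio of 0.93. Among all 836 listed loci, S100A6 ranked 3 by FPKM in the control and 2 after silencing, and ANXA1 ranked 7 and 22.

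The p-values of the 8 genes in the authors' deposited table ran from 5e-05, for CAV1 and SEMA3C, to 0.0299, for PDGFB. In that table EGFR had 0.00255, SEMA3A 0.0021, NRP1 0.00645, ANXA1 0.0096 and S100A6 0.02445. These p-values are unadjusted and compare 2 libraries, not 2 conditions. GENCODE release 29 places an antisense gene over EGFR, CAV1, NRP1, PDGFB and S100A6, and the small RNA pseudogene RN7SL398P over NRP1 on the same strand, which makes the NRP1 value uncertain. No source used here gives the strand setting, and without it the reads of these genes and of their antisense partners cannot be told apart. The same holds for SEMA3D, SHC1, PLXNA3, PDGFC and SDPR, named below, which each have a gene on the opposite strand over them. For MYB, the muscle genes named above and the other loci named below, overlaps were not looked up.

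**Figure D2:**
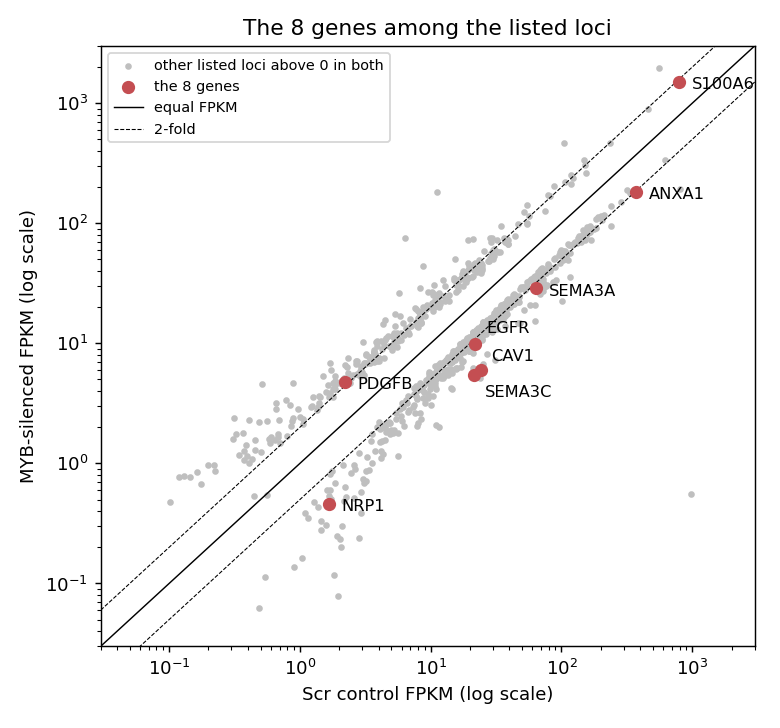
FPKM in the MYB-silenced library (vertical, log axis) against FPKM in the Scr control library (horizontal, log axis) for listed loci above 0 in both, with the 8 genes in red. The solid line marks equal levels and the dashed lines 2-fold differences. CAV1 and SEMA3C sit side by side under the lower dashed line, and PDGFB and S100A6 lie near the upper one.

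By level, the order in the Scr control library was S100A6, ANXA1, SEMA3A, CAV1, EGFR, SEMA3C, PDGFB and NRP1. CAV1, EGFR and SEMA3C lay between 21.5 and 24.1 FPKM, and their order cannot be settled with 1 library. After silencing the order was the same except that EGFR, at 9.89 FPKM, stood above CAV1. CAV1, SEMA3C and PDGFB then lay between 4.76 and 5.95 FPKM, and their order again cannot be settled.

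Ratios of FPKM between genes within a library put receptor beside ligand. SEMA3A was at 38.1 times the level of NRP1 in the control and at 62.4 times after silencing. With 0.5 added to each FPKM value, these became 29.6 and 30.4 times, so the difference between the libraries rests on the low NRP1 value. SEMA3C was at 12.9 and 11.8 times the level of NRP1, and at 10.1 and 6.17 times with 0.5 added, so this comparison rests on the NRP1 value as well. EGFR was at 0.908 times the level of CAV1 in the control and at 1.66 times after silencing. S100A6 was at 2.13 times the level of ANXA1 in the control and at 8.34 times after silencing, a 3.91-fold wider gap.

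**Figure D3:**
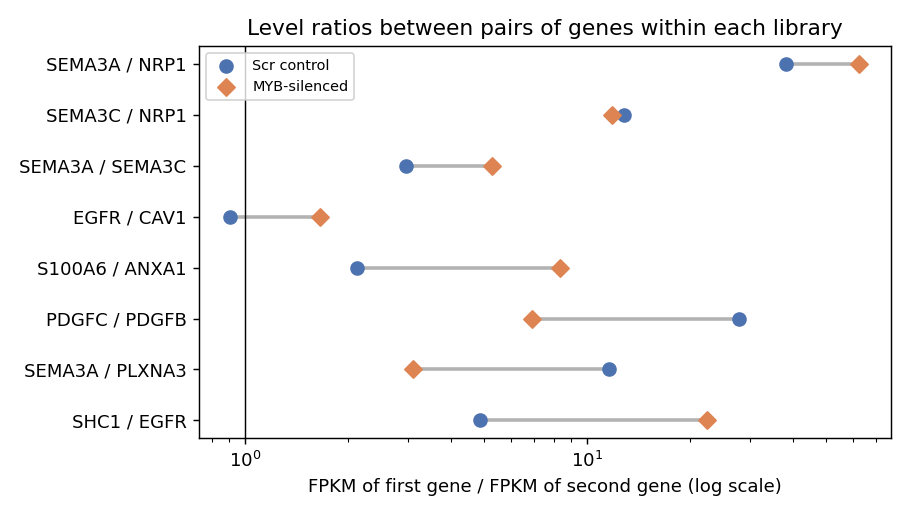
FPKM of the first gene over FPKM of the second gene of each pair (log axis), with a circle for the Scr control library and a diamond for the MYB-silenced library, and a vertical line at equal levels. The ratio of S100A6 to ANXA1 moves from 2.13 to 8.34, that of EGFR to CAV1 crosses the line from 0.908 to 1.66, and that of SEMA3C to NRP1 is 12.9 and 11.8 as plotted but 10.1 and 6.17 with 0.5 added to each FPKM value.

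The 10 related gene lists, with 188 genes, were looked up, and 10 loci outside the 8 genes were listed, 5 lower and 5 higher, beside 62.4% lower and 37.6% higher among the 797 loci. Of 20 semaphorin genes, 3 were listed and all 3, which are of class 3, were at least 2-fold lower, beside 24.7% of the listed loci. SEMA3A and SEMA3C among them were picked with their ratios known. The third, SEMA3D (chromosome 7, 84624872 to 84751247), measured 3.09 FPKM in the control against 0.686 FPKM with the hairpin, a log2 ratio of -1.60. Summed, these 3 ligand genes came to 88.2 FPKM in the control against 34.8 FPKM with the hairpin, and the share of SEMA3A in that sum was 72.1% and 82.4%. Among 12 neuropilin, plexin and L1CAM genes, PLXNA3 was listed beside NRP1. It encodes a plexin that pairs with neuropilins, and it was higher, at 5.49 and 9.28 FPKM (log2 ratio 0.71). SEMA3A was therefore at 11.6 times the level of PLXNA3 in the control and at 3.09 times after silencing.

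In the EGF receptor system, EGFR was the only one of 15 receptor and ligand genes in the table, so none of its ligands or of the other ERBB receptors was analysed here. Of 36 genes of EGFR signalling, ligand shedding and feedback, 1 was listed. This was the adaptor gene SHC1 (chromosome 1, 154934774 to 154946959), with 107 FPKM in the control against 222 FPKM with the hairpin (log2 ratio 1.05). That list is not complete. Outside it, and named after their values were seen, SHC2 (log2 ratio 1.09) and GRB7 (1.69) were higher and PIK3R3 (-0.86) was lower, among others. SHC1 was at 4.87 times the level of EGFR in the control and at 22.4 times after silencing. GENCODE release 29 also places the gene PYGO2 over part of SHC1 on the same strand, which makes the SHC1 value uncertain. Of 28 other receptor tyrosine kinase genes, the collagen receptor DDR2 was listed, at 17.9 and 8.41 FPKM (log2 ratio -1.04), lower like EGFR. Of 9 caveolar genes, SDPR was listed beside CAV1. SDPR encodes cavin-2, a cytoplasmic coat protein of caveolae, and was at 6.81 and 2.81 FPKM (log2 ratio -1.14), so it was at least 2-fold lower, as were 24.7% of the listed loci. CAV1, the other listed caveolar gene, was picked with its ratio known.

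The PDGF and VEGF genes were divided. Of 15 ligand and receptor genes, 3 loci were listed. PDGFC (chromosome 4, 157682763 to 157892546), a second PDGF ligand gene, measured 61.2 FPKM in the control against 32.9 FPKM with the hairpin (log2 ratio -0.89), the opposite direction to PDGFB. PDGFC stood at 27.9 times the level of PDGFB in the control and at 6.92 times after silencing. In the sum of both, which was 63.4 and 37.7 FPKM, PDGFB held 3.47% in the control and 12.6% after silencing. The joint locus of FIGF, which encodes VEGF-D, and PIR had 8.39 against 17.2 FPKM (log2 ratio 0.99). The table does not separate these genes. None of the receptor genes in this list was in the table. NRP1, which can also bind VEGF as a co-receptor, was counted with the neuropilins. Of 22 other growth factor genes, GDF15 (19.4 and 72.4 FPKM, log2 ratio 1.87) and the joint locus of IGF2, INS and INS-IGF2 (2.43 and 4.72 FPKM, log2 ratio 0.83) were listed, both higher like PDGFB. FGF5, a growth factor gene outside that list and under the level filter, named after its values were seen, was lower (1.09 and 0.389 FPKM, log2 ratio -0.84).

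Of 12 annexin genes, ANXA10 was listed beside ANXA1 and was lower too, at 4.47 and 1.57 FPKM (log2 ratio -1.27). Of the 797 loci, 62.4% were lower, and ANXA1 was picked with its ratio known. Of 19 S100 genes, S100A6 alone was in the table.

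**Figure D4:**
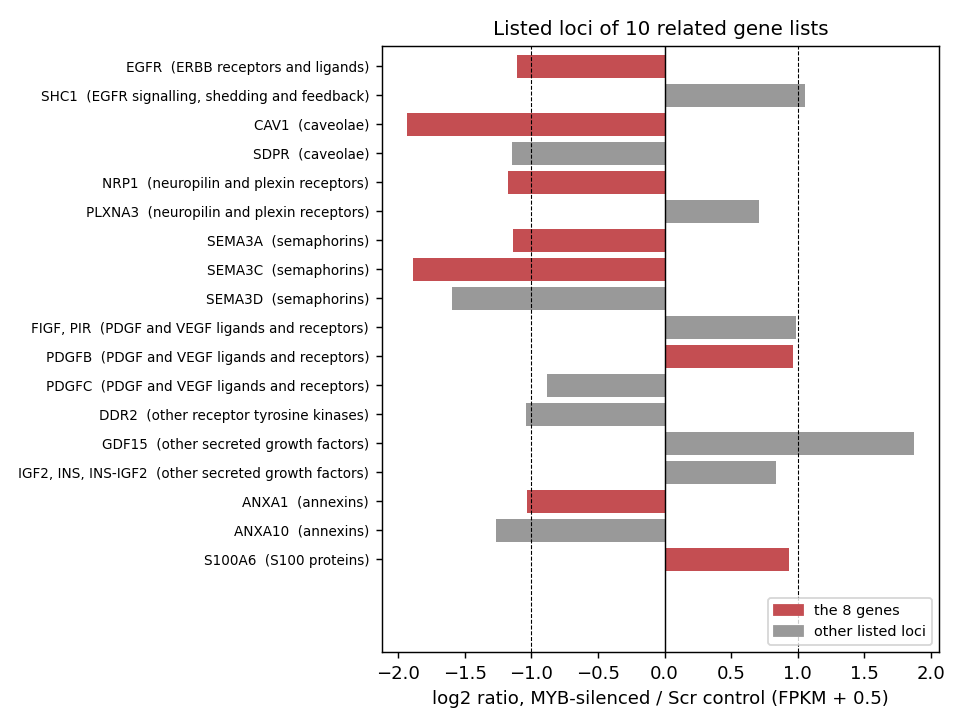
Log2 ratio (MYB-silenced over Scr control, pseudocount 0.5 FPKM) of each listed locus of the 10 related gene lists, with the 8 genes in red, other listed loci in grey and dashed lines at 2-fold. All 3 semaphorins, both caveolar genes and both annexins point left, while PDGFB and PDGFC, and NRP1 and PLXNA3, point in opposite directions. Of the 797 loci that pass the level filter, 62.4% were lower, and the 8 genes were picked with their ratios known.

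Transcript GC content moved with direction in this table, and it did so among the 8 genes. The 6 lower genes had a median transcript GC content between 40.2% (ANXA1) and 54.1% (EGFR), and the 2 higher genes were at 60.2% (S100A6) and 60.8% (PDGFB). Of the 797 loci that pass the level filter, the 784 with a GC value were divided by GC content into 5 bins of 156 or 157 loci. In the bin with the lowest GC content, which holds ANXA1, 92.4% were lower. SEMA3A lies in the next bin, with 87.9% lower. The middle bin, with CAV1, NRP1 and SEMA3C, had 71.2% lower. EGFR, PDGFB and S100A6 share the fourth, in which 49.0% were lower, and 10.8% were lower in the bin with the highest GC content. Of the 10 related loci, the 5 lower ones had a GC content of 38.3% (ANXA10), 41.0% (SEMA3D), 43.2% (SDPR), 44.7% (PDGFC) and 50.1% (DDR2). The 5 higher ones were at 47.4% (the joint locus of FIGF and PIR), 56.5% (SHC1), 60.5% (PLXNA3), 61.5% (GDF15) and 62.2% (the joint locus of IGF2, INS and INS-IGF2), so the FIGF and PIR locus was higher with a GC content below that of DDR2. GC content was taken over all annotated transcripts of a gene, short ones included. The median transcript length was 568 bases for SEMA3A and 582 bases for SEMA3C. The GC values need not be those of the transcripts that were sequenced. The part of GC content in these ratios was not tested.

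**Figure D5:**
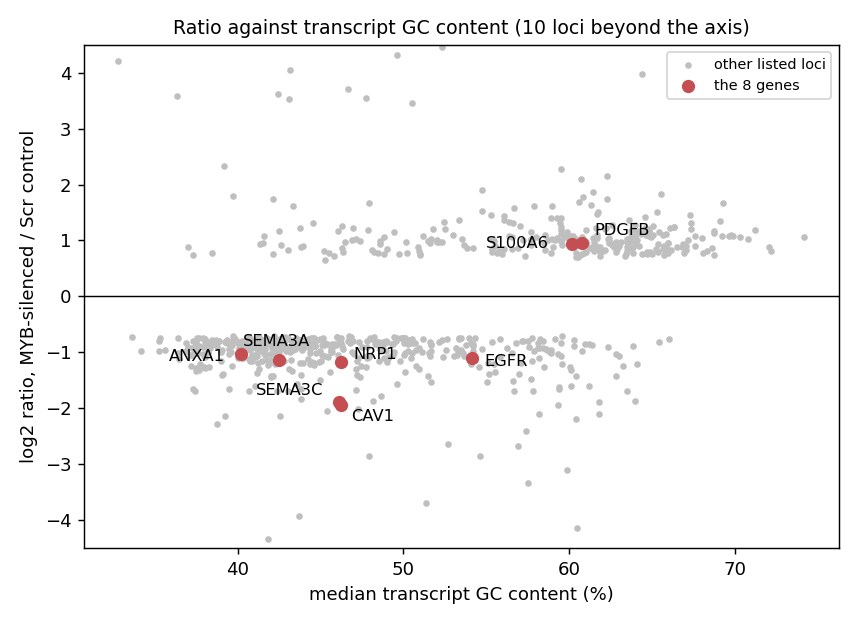
Log2 ratio against the median GC content of a gene's transcripts in percent, for the listed loci that pass the level filter, with the 8 genes in red; 10 loci lie beyond the plotted range. The empty band around 0 reflects the selection of the table, whose smallest absolute log2 ratio at this level was 0.64. The 6 lower genes lie at 54.1% GC or less, and PDGFB and S100A6 lie above 60%.

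The listed gene with the pair of levels most like each of the 8 was found by distance between log2 FPKM pairs over the 2 libraries, among 787 single-gene loci. For SEMA3C this was the kinase gene CDK6, at 21.2 and 5.46 FPKM, a distance of 0.021. PDGFB was nearest to PRSS16 (2.17 and 4.91 FPKM, distance 0.049), EGFR to SGOL2 (21.0 and 9.94 FPKM, 0.058) and NRP1 to RIMKLA (1.67 and 0.491 FPKM, 0.093). SEMA3A was nearest to NPIP, of a multigene family whose copies can share reads (66.3 and 27.2 FPKM, 0.098), ANXA1 to the glycolytic gene PGK1 (332 and 178 FPKM, 0.166) and CAV1 to C1orf110 (25.2 and 6.67 FPKM, 0.177). S100A6 had no close neighbour, the nearest being the small nucleolar RNA gene SNORD36A at 561 and 1954 FPKM, a distance of 0.621.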

How the data were processed

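RNA-seq values of 1 Scr control and 1 MYB-silenced library were analysed. The authors deposited FPKM values, a signed fold score and a log2 ratio without a pseudocount, and p-values that are unadjusted, per the file headers. Per the submitters' processing notes, the tools were CASAVA 1.8.2, Cufflinks, Bowtie and TopHat, and the genome build was hg19; their roles, parameters, strand setting and library scaling are not given in the sources. From the FPKM values, log2 ratios (pseudocount 0.5), counts past 2-fold among loci whose mean reached 1 FPKM, and FPKM ratios between genes were computed. The tools were Python 3.11.15, numpy 2.4.6 and pandas 2.3.3. The log2 ratios and counts were checked on known fold changes put into the control values without noise. Exact agreement was required only without a pseudocount. FPKM ratios between genes were not checked in this way. No test across genes was run. The deposited log2 ratio differed from that of the FPKM values by at most 4.1e-05.

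The genes and lists were chosen with earlier results of these data known. Besides the 8 genes and MYB, the text names up to 4 listed loci per list, the nearest locus by level, and listed loci within 500 kb. It also names some loci picked after their values were seen, and says so there. The table starts were raised by 1, because RefSeq gene lengths equalled end minus start for 41 of 754 loci and 1 more than that for 7. GC content is the median over GENCODE release 29 transcripts, found through symbols or RefSeq synonyms for 822 of 836 loci (98.3%). Alternatives were other pseudocounts, fold rules, level filters and centring.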

Additional observations from a re-analysis of the deposited data

How the results depend on the processing

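With pseudocounts of 0.1 and 1, or with none, no gene could change direction, because the same constant is added to both libraries. After centring all 8 genes kept their direction. For PDGFB and S100A6 this was fixed in advance, because the median that was subtracted is negative. The other 6 had been picked with log2 ratios of -1.03 or lower, so subtracting -0.80 could not turn them either. Centring subtracts -0.80, the median log2 ratio over this selected table, and is no estimate of unchanged genes. It gave -0.31 for EGFR, -1.13 for CAV1, -0.38 for NRP1, -0.33 for SEMA3A, -1.09 for SEMA3C, -0.23 for ANXA1, 1.76 for PDGFB and 1.73 for S100A6, and turned the 6 genes at least 2-fold lower and 0 higher into 2 and 2. At 1.5-fold the counts were 6 and 2, beside 62.4% and 37.6% of listed loci, and at 3-fold 2 and 0, beside 6.02% and 4.39%. The smallest absolute log2 ratio at this level was 0.64, so every locus passes the 1.5-fold rule. That rule only repeats the counts of lower and higher loci. With a pseudocount of 0.1, 1 gene (PDGFB) was at least 2-fold higher, and with a pseudocount of 1 NRP1 left the 2-fold group, leaving 5 lower. Without a pseudocount NRP1 was at -1.86. After silencing, NRP1 was at 0.016 times the level of SEMA3A and 0.0848 times that of SEMA3C, and with 0.5 FPKM added at 0.0329 and 0.162 times. Shares of listed loci past 2-fold stayed within 1.5 times under the other filters and pseudocounts. No paired analysis was possible because each group has 1 library, and none could be left out. Depth is unknown, so values under 1 FPKM, such as that of NRP1 after silencing, are the least certain.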

Other observations

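Of the 8 genes, 4 lie on chromosome 7: EGFR, SEMA3C, SEMA3A and CAV1, all at least 2-fold lower. SEMA3C, SEMA3A and SEMA3D follow each other there, with 3037 kb between the first pair and 688 kb between the second, and no other listed locus lies from SEMA3C to SEMA3D. Of the 797 loci, 37 lie on chromosome 7, and 17 of these (45.9%) were at least 2-fold lower, beside 24.7% of all 797. Without the 4 genes and SEMA3D, 12 of the 32 others (37.5%) were. The chromosome was singled out after the values were seen, and the difference was not tested.

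Within 500 kb of the 8 genes, 1 other listed locus was found. ALDH1A1 (chromosome 9, 75515578 to 75580524), which encodes a retinaldehyde dehydrogenase, lies 186 kb from ANXA1 and measured 48.5 FPKM in the control against 14.8 FPKM with the hairpin (log2 ratio -1.68), lower like ANXA1.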
